A study of Mus musculus with 12 samples.

Results

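The BCL2 family was followed in renal tubular epithelial cells (TECs) and blood neutrophils (PMN) of mice that received glutamine or vehicle after ischemia/reperfusion injury (IRI) of the kidney. The 10 members were taken by gene name, and all 10 were present among the 50433 gene symbols of the TEC table and the 50434 of the PMN table. They comprised 3 pro-survival genes (Bcl2l1, Mcl1 and Bcl2) and 7 pro-death genes (Bax, Bak1, Bad, Bid, Bcl2l11, Bbc3 and Hrk). RNA was sequenced in 12 samples, which formed 4 groups of 3 libraries, namely TECs with glutamine, TECs with vehicle, PMN with glutamine and PMN with vehicle. All mice were wild type and all had undergone clamping of the renal vessels, so that no uninjured group entered the comparison. Glutamine was given intravenously as an alanyl-glutamine dipeptide, and vehicle was saline. Cells were collected 24 hours after IRI, TECs by sorting kidney cells that lacked CD45 and carried Prominin-1, and PMN from blood. The comparison asked, in each cell type, whether glutamine altered transcript levels of the genes that set the threshold for mitochondrial apoptosis. Of the members, Bad and Hrk had been singled out by the study from these same TEC libraries, so their values are not independent evidence.

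Proteins of the BCL2 family control whether the outer mitochondrial membrane is opened, the committing step of intrinsic apoptosis. BCL-XL (from Bcl2l1), MCL1 and BCL2 hold the membrane closed, whereas BAX and BAK (from Bak1) form the pores through which cytochrome c escapes. BH3-only proteins such as BAD, BID, BIM (from Bcl2l11), PUMA (from Bbc3) and HRK sense stress and dock with a short helix, the BH3 motif, into a groove on the pro-survival proteins. In the kidney, tubular cells are a well known site of this pathway after ischemia, and in neutrophils, which live briefly, MCL1 is known as the main survival factor.

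The feature that all members share is the BH3 motif, and the bases that code for its core were therefore read from the coding sequences of the GENCODE M21 annotation of GRCm38. The core was searched for as a leucine codon, 2 further codons, a codon for alanine, isoleucine, leucine, methionine or valine, a glycine, serine or alanine codon and an aspartate codon, and it occurred once in each of the 10 genes. In the following sequences, written 5′ to 3′ on the coding strand, capitals mark this core of 18 bases and lower case marks 4 codons on either side.
Bcl2l1: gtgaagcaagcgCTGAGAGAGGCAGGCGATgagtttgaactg (chr2:152829694-152829735, - strand)
Mcl1: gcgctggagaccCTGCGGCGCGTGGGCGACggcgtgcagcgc (chr3:95659424-95659465, + strand)
Bcl2: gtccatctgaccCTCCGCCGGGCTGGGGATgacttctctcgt (chr1:106712572-106712613, - strand)
Bax: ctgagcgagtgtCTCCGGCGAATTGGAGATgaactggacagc (chr7:45465994-45466035, - strand)
Bak1: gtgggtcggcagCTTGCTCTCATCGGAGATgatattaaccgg (chr17:27022528-27022569, - strand)
Bad: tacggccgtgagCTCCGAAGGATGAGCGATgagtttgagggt (chr19:6950780-6950821, + strand)
Bid: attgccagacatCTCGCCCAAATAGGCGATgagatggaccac (chr6:120897286-120897327, - strand)
Bcl2l11: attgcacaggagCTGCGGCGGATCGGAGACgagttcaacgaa (chr2:128147138-128147179, + strand)
Bbc3: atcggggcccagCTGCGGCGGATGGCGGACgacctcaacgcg (chr7:16313761-16313802, + strand)
Hrk: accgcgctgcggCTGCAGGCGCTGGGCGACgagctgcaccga (chr5:118169879-118169920, + strand)
Each stretch lay within 1 coding exon. Bad carried a serine codon and Bbc3 an alanine codon at the position where the other members carried a glycine codon. The search itself required the rest of this layout, which pro-survival and pro-death genes therefore have in common.

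Library totals lay between 5397370 and 10223461 estimated counts in TECs and between 20225246 and 21878446 in PMN. Levels are given as counts per 1000000 counts of a library (CPM) after scaling of the libraries by edgeR's TMM method, whose factors were 0.989 to 1.099 in the TEC vehicle libraries and 0.926 to 0.964 in the TEC glutamine libraries. In TECs, 10 of 10 proximal tubule markers were detected, with a summed level of 4006 to 6052 CPM with vehicle and 4034 to 6374 CPM with glutamine. Of these markers, 9 had a higher mean with glutamine, and the exception was Aqp1, with 1559, 3736 and 1872 CPM with vehicle and 906, 1486 and 1940 CPM with glutamine. Neutrophil markers summed to 103 to 246 CPM with vehicle and 121 to 262 CPM with glutamine in TECs, and to between 28522 and 81309 CPM in PMN. In PMN the macrophage and dendritic cell markers also summed to between 11739 and 26040 CPM, so that the PMN libraries held abundant transcripts such as Cd74, which is best known from antigen-presenting cells. PMN libraries were less alike than TEC libraries, with correlations of log2(CPM + 1) across genes of 0.776 to 0.835 against 0.965 to 0.981, and between 5.77% and 14% of the tested genes were listed at 0 in a PMN library.

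In TECs, 4 pro-death genes, Bad, Bax, Bid and Bak1, had lower mean levels with glutamine, by 1.70-fold to 3.39-fold, while the 3 pro-survival genes differed by 1.09-fold or less. The quasi-likelihood test of edgeR was run over 14734 genes with Benjamini-Hochberg adjustment of its p-values. At an adjusted p below 0.05, 0 members were called, as were 0.00% of the genes tested. Unadjusted, 4 of the 6 tested pro-death genes and 0 of the 3 pro-survival genes had p-values below 0.05 in the lower direction, beside 5.51% of all genes tested. A log2 fold change of glutamine against vehicle below 0 was found in 8 of 9 tested members, compared with 49.4% of all genes. For Bcl2, Mcl1, Bcl2l1 and Bbc3, however, it lay between -0.12 and -0.01, so the count does not show a drop across the family. The median log2 fold change was -1.0 over the tested pro-death genes, -0.08 over the pro-survival genes and 0.01 over all genes. Among the members, Bad and Bak1 were lower in every glutamine library than in every vehicle library, a pattern shared by 9.81% of the genes tested. With DESeq2's Wald test, 1 member, Bad, passed among 246 genes in all, or 1.93% of the genes to which it gave an adjusted p-value. In these bulk samples, fewer cells of a type and less RNA per cell cannot be told apart.

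**Figure D1:**
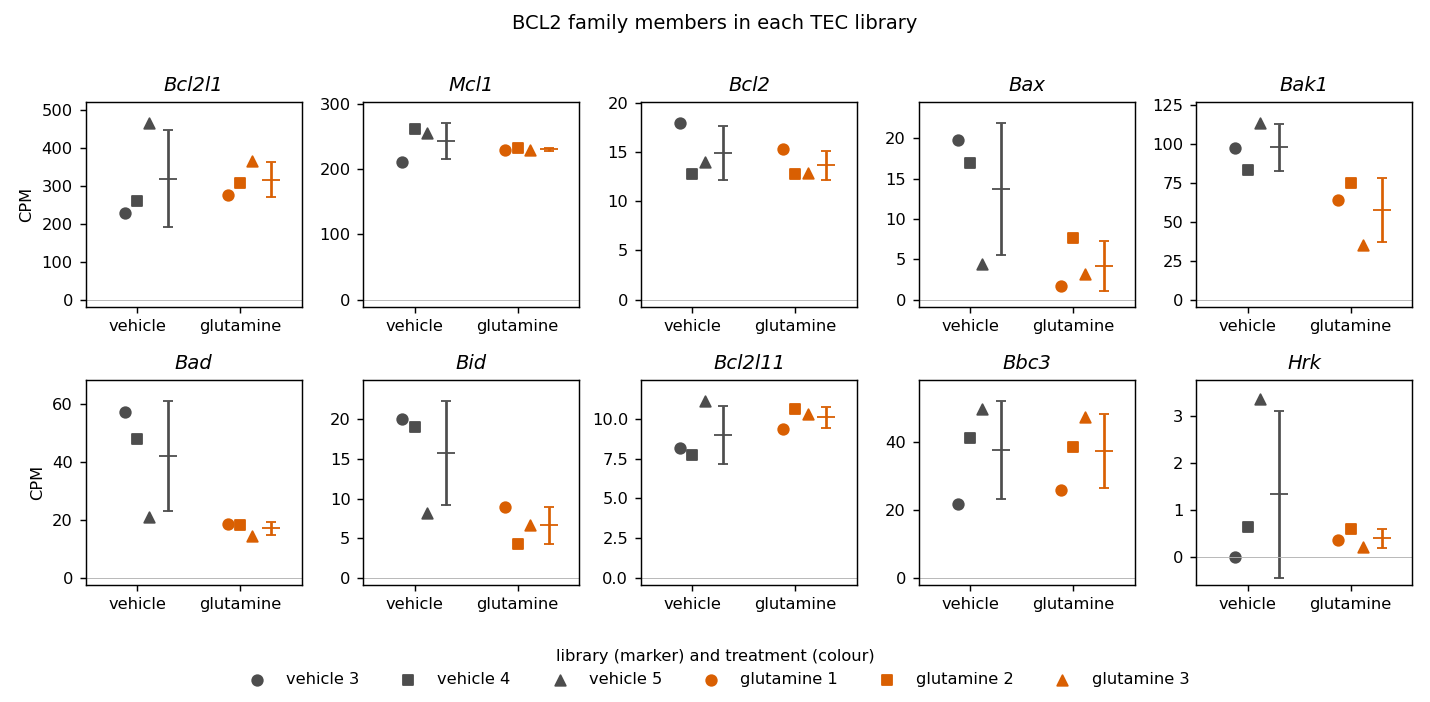
CPM of each member in the 6 TEC libraries, 1 panel per gene with its own axis; markers are libraries and the bars beside them show mean and SD of 3 libraries. For Bad, Bax and Bid, vehicle 5 lay near the glutamine libraries, while for Bak1 it was the highest library at 113 CPM.

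Bad encodes the BH3-only protein that survival kinases silence by phosphorylation. It reached 57.4, 48.0 and 21 CPM in vehicle 3, 4 and 5, and 18.5, 18.3 and 14.5 CPM in glutamine 1, 2 and 3. The groups did not overlap, but vehicle 5 lay much closer to the glutamine libraries than to the other vehicle libraries. The log2 fold change was -1.30 (SE 0.35, 95% interval -2.07 to -0.54, edgeR adjusted p = 0.217), or 2.47-fold lower. DESeq2 gave an adjusted p = 0.034, and edgeR without its expression filter gave 0.00135. Without vehicle 5 the log2 fold change in edgeR was -1.63, and across the fits that each left out 1 library it ranged from -1.63 to -1.02 with adjusted p-values no lower than 0.0816. The annotation places Bad on chromosome 19 from 6941861 to 6951899 (GRCm38), where 524 exonic bases are shared with Gpr137 on the opposite strand. Since strand-specific counting is not stated, reads from this stretch cannot be assigned with certainty. Gpr137 itself went from a mean of 12.8 ± 4.93 CPM in the vehicle libraries to 7.74 ± 4.46 CPM (SD, n = 3), and its log2 fold change was -0.75 (edgeR adjusted p = 0.528). It had 174, 153 and 73 counts in vehicle 3, 4 and 5, and 55, 63 and 36 counts in glutamine 1, 2 and 3. Vehicle 5 was thus its lowest vehicle library, as for Bad.

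Bax and Bid showed the same arrangement of libraries. Bax, the gene of a pore-forming effector (chromosome 7 from 45461697 to 45466898), reached 19.8, 16.9 and 4.38 CPM in vehicle 3, 4 and 5, and 1.68, 7.63 and 3.18 CPM in glutamine 1, 2 and 3. Vehicle 3 and 4 were high and vehicle 5 fell within the range of the glutamine libraries. The log2 fold change was -1.76 (SE 0.64, 95% interval -3.16 to -0.36, edgeR adjusted p = 0.298). Bid, whose protein links death receptors to mitochondria (chromosome 6 from 120891930 to 120916853), reached 20.0, 19.0 and 8.15 CPM with vehicle and 8.89, 4.22 and 6.69 CPM with glutamine. Here again vehicle 5 alone overlapped the glutamine libraries. Its log2 fold change was -1.24 (SE 0.42, 95% interval -2.17 to -0.30, edgeR adjusted p = 0.275). Bid shares 628 exonic bases with Bcl2l13 on the opposite strand, which had a log2 fold change of -0.28. Bax shares 192 exonic bases with the predicted gene Gm45808 on the same strand, which was listed at 0 in all 6 TEC libraries. DESeq2 gave adjusted p-values of 0.122 for Bax and 0.152 for Bid, whereas edgeR without its expression filter called Bax, with an adjusted p-value of 0.00911. Without glutamine 2 the log2 fold change of Bax was -2.49. Bax counts were as low as 14 in glutamine 1, and Bid counts as low as 21 in glutamine 2, so single libraries carry large counting errors for both genes.

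As examples of member promoters, the 250 bases upstream of 1 annotated start of Bad and of Bax are shown, from RefSeq on GRCm38.p6. A second Bad start, whose upstream window (chr19:6942312-6942561) held 0 matches of the motif marked here, is not printed. Capitals mark each GGGCGG, the core of an SP1 box, on either strand.
Bad: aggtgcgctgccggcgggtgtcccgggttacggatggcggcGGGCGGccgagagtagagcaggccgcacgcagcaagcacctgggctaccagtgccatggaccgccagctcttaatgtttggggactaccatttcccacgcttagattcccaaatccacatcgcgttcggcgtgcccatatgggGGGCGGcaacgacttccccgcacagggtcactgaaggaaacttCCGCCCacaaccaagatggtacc (chr19:6941611-6941860, + strand)
Bax: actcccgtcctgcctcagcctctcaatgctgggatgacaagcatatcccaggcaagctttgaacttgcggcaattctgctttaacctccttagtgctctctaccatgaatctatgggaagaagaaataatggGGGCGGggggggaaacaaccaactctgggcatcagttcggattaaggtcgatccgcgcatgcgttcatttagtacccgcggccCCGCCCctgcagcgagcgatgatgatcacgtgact (chr7:45466899-45467148, - strand)
This motif was present upstream of at least 1 start of Bad, Bax, Bid, Bbc3, Bcl2, Bcl2l11, Hrk and Mcl1, in 11 of 16 member promoters, compared with 32.7% of all 32851 promoters. A promoter motif of AP-1, TGACTCA, was found in 0 of 16 member promoters and in 4.46% of all promoters. The FOXO motif GTAAACA was found upstream of Bbc3 and Bcl2l11, in 2 of 16, compared with 3.17% of all. The 16 member promoters belong to 10 genes, and windows of Bbc3 overlap in part, so they are not independent. These are matches of letters in a short window, and SP1 matches were present in members with and without lower levels. Whether the motifs bear on the levels was not tested.

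Bak1, the gene of the second pore-forming effector (chromosome 17 from 27019810 to 27029009), differed from this arrangement. It reached 97.4, 82.9 and 113 CPM in vehicle 3, 4 and 5, and 63.5, 74.7 and 34.9 CPM in glutamine 1, 2 and 3. All glutamine libraries lay below all vehicle libraries, and vehicle 5 was the highest of the 6. The log2 fold change was -0.76 (SE 0.28, 95% interval -1.38 to -0.14, edgeR adjusted p = 0.306), or 1.70-fold lower. Glutamine 3 weighed on this value, as the log2 fold change was -0.50 without that library. Bak1 shares 614 exonic bases with Ggnbp1 on the opposite strand, whose mean was 34.7 ± 3.74 CPM in vehicle and 43.9 ± 4.80 CPM in glutamine libraries (SD, n = 3), the opposite direction to Bak1.

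Bcl2l11 and Bbc3 gave no such difference, and Hrk could not be resolved. Bcl2l11, the gene of the broad pro-death ligand BIM, reached 8.19, 7.70 and 11.1 CPM with vehicle and 9.37, 10.6 and 10.3 CPM with glutamine. Its log2 fold change was 0.17 with a 95% interval of -0.55 to 0.89. Bbc3, the gene of the p53 target PUMA, reached 21.6, 41.2 and 49.6 CPM with vehicle and 25.7, 38.4 and 47.3 CPM with glutamine. Both groups covered nearly the same range, and the log2 fold change was -0.01 with a 95% interval of -0.74 to 0.71. Hrk, the gene of harakiri, was too weakly expressed to pass edgeR's expression filter. It had 0, 7 and 33 counts in vehicle 3, 4 and 5 and 3, 3 and 2 counts in glutamine 1, 2 and 3. Vehicle 5 alone held 33 of the 48 counts, or 68.8%, and the other vehicle libraries together held 7 counts against 8 in the glutamine libraries. A fit without the expression filter gave Hrk a log2 fold change of -1.79 (SE 1.43) and an adjusted p = 0.604 in edgeR. DESeq2 gave Hrk an unadjusted p of 0.242 and, through its own filter, no adjusted p-value.

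The pro-survival genes had similar mean levels in both groups. Bcl2l1 reached 229, 261 and 465 CPM with vehicle and 277, 307 and 366 CPM with glutamine. Vehicle 5 was the highest of the 6 libraries, and the group means of 318 ± 128 and 316 ± 45.2 CPM (SD, n = 3) gave a log2 fold change of -0.01 with a 95% interval of -0.61 to 0.59. Without vehicle 5 it was 0.37. Mcl1 reached 211, 261 and 256 CPM with vehicle and 229, 233 and 229 CPM with glutamine, a log2 fold change of -0.08 with a 95% interval of -0.49 to 0.33. The glutamine libraries were almost identical for Mcl1 and lay inside the vehicle range. Bcl2, named for the lymphoma in which the family was found, reached 17.9, 12.7 and 14 CPM with vehicle and 15.3, 12.7 and 12.9 CPM with glutamine, a log2 fold change of -0.12 with a 95% interval of -0.75 to 0.51. The interval of Bcl2 reaches to -0.75 and that of Bcl2l1 to -0.61, so equal levels are not shown. Scaling by plain library totals, chosen after the data were seen because the TMM factors separated the groups, moved the median of all TEC genes by -0.17. On that scale Mcl1 was also lower in every glutamine library, as were 15.4% of the genes tested.

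**Figure D2:**
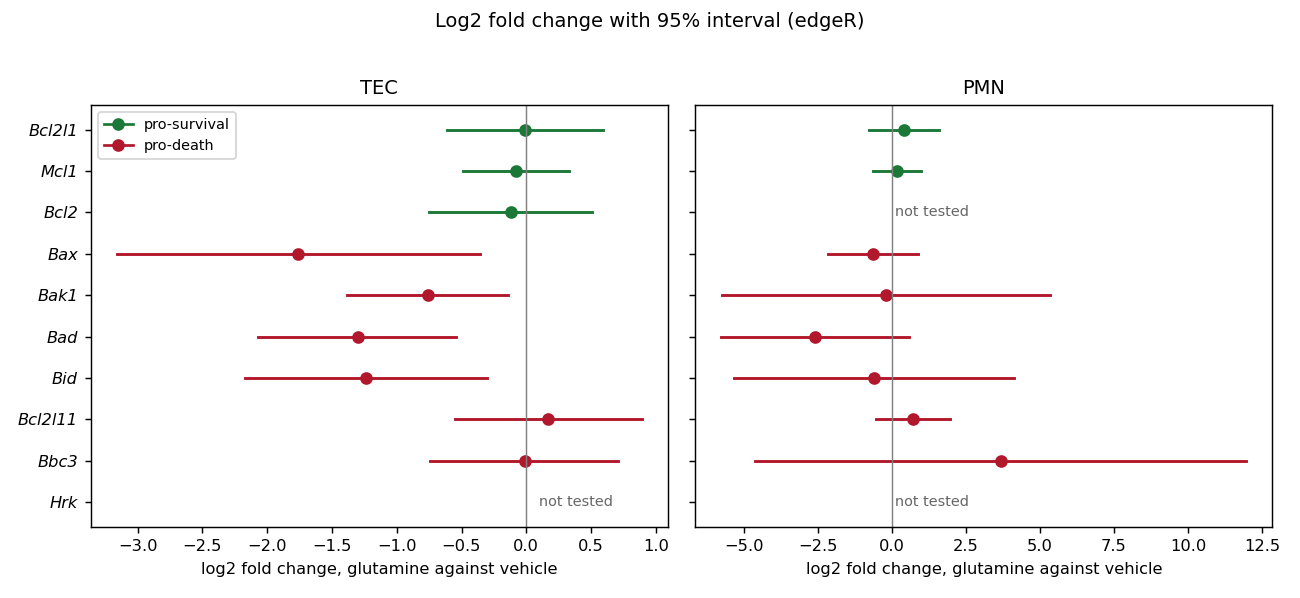
Log2 fold change of glutamine against vehicle (horizontal axis) for each member that passed the expression filter, which left out Hrk in TECs and Hrk and Bcl2 in PMN, with 95% intervals from edgeR; pro-survival genes are green and pro-death genes red. In TECs the intervals of Bax, Bak1, Bad and Bid lie below 0, and all PMN intervals include 0.

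Vehicle 5 also stood apart in a tubular injury marker. Havcr1, which encodes KIM-1, reached 793, 541 and 106 CPM in vehicle 3, 4 and 5, and 94.1, 49.4 and 26.2 CPM in glutamine 1, 2 and 3. This is the order of groups seen for Bad, with vehicle 5 next to the glutamine libraries and no overlap, as for 9.81% of the genes tested in the lower direction. The injury list summed to 5365, 3113 and 2473 CPM in vehicle 3, 4 and 5 and to 2997, 3100 and 2583 CPM in glutamine 1, 2 and 3. Vehicle 3 was the high library of this sum, vehicle 4 lay just above and vehicle 5 below the glutamine libraries, and 4 of the 7 genes had higher means with glutamine. Vehicle 5 stood apart in erythroid and platelet markers as well, which summed to 1311, 806 and 4404 CPM in vehicle 3, 4 and 5 and to 1603, 6727 and 975 CPM in glutamine 1, 2 and 3, so that vehicle 5 and glutamine 2 were the high libraries. The proximal tubule marker Slc34a1, a phosphate transporter gene, reached 1318, 1298 and 2374 CPM with vehicle and 1952, 2595 and 2711 CPM with glutamine, with vehicle 5 inside the glutamine range and vehicle 3 and 4 below it. This arrangement was found for 3 of the 10 proximal tubule markers, and its share over all genes was not determined. In 2 others every glutamine library was above every vehicle library, as for 9.01% of the genes tested. These were Slc22a6, an organic anion transporter gene, and Slc5a2, the gene of the glucose transporter SGLT2. Slc5a2 was weak, at 1.87, 1.16 and 2.04 CPM with vehicle and 2.52, 14.1 and 5.04 CPM with glutamine. Of the other segments, 4 of 4 markers of the thick ascending limb and 5 of 6 of the distal tubule and collecting duct had higher means with glutamine. Slc12a1, the gene of the cotransporter NKCC2, reached 38.3, 45 and 38 CPM with vehicle and 53.0, 143 and 104 CPM with glutamine. Calb1, the calbindin gene, reached 27.0, 25.8 and 25.5 CPM with vehicle and 45.6, 46.6 and 41.1 CPM with glutamine. Neither gene overlapped between the groups, as for 9.01% of the genes tested in the higher direction. Endothelial markers summed to 317 to 528 CPM with vehicle and 317 to 443 CPM with glutamine, and macrophage and dendritic cell markers to 44.1 to 90.8 and 66.7 to 139 CPM. Higher means with glutamine were found for 1 of 6 endothelial, 6 of 9 macrophage and dendritic cell and 10 of 11 neutrophil markers. The part of injury, of erythroid transcripts and of cell mixture in the lower Bad, Bax and Bid levels was not tested.

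The balance between the classes was described for each library as the mean log2(CPM + 1) of the 7 pro-death genes minus that of the 3 pro-survival genes. In TECs it was -2.47, -2.37 and -2.88 in vehicle 3, 4 and 5, and -3.29, -2.99 and -3.36 in glutamine 1, 2 and 3. Every glutamine library lay below every vehicle library, with means of -3.22 ± 0.20 and -2.57 ± 0.27 (SD, n = 3) and a difference of -0.64 against a pooled SD of 0.24. Pro-death genes supplied 28.0% ± 5.39 of the summed CPM of all members with vehicle and 19.2% ± 2.87 with glutamine (SD, n = 3). Vehicle 5, at 22.2%, lay nearest to the glutamine libraries, of which glutamine 2 was the highest at 21.8%. No p-value is attached to these scores, because the members were chosen with results of these data known. Single ratios were less clear, and all 7 that were formed overlapped between the groups. Bax relative to Bcl2, the classical rheostat of this pathway, gave log2 ratios of 0.14, 0.39 and -1.47 with vehicle and -2.60, -0.66 and -1.74 with glutamine. Bak1 relative to Mcl1, its usual restrainer, gave -1.11, -1.64 and -1.18 with vehicle and -1.83, -1.63 and -2.68 with glutamine.

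**Figure D3:**
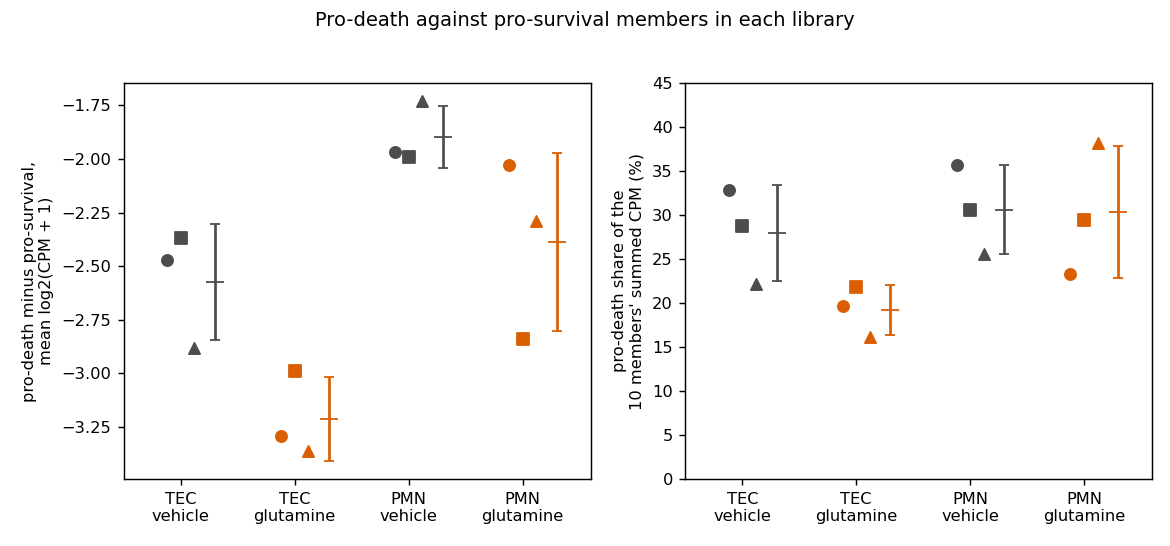
Left, mean log2(CPM + 1) of pro-death minus pro-survival genes, and right, the pro-death share of the members' summed CPM in percent, for each library with mean and SD of 3 libraries. In TECs the glutamine libraries lie below the vehicle libraries in both panels, whereas in PMN the shares overlap.

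Levels of different members were compared per kilobase of transcript, over all 6 libraries of a cell type. In TECs the order was led by Bcl2l1 with 131 ± 35.6 and Mcl1 with 111 ± 8.90 CPM per kilobase (SD, n = 6), whose ranges overlapped. Bak1 followed with 47.3 ± 16.5, below every value of Mcl1, and then Bad with 27.4 ± 16.9 and Bbc3 with 20.6 ± 6.28 CPM per kilobase, each overlapping its neighbour. Bad exceeded Bbc3 in 3 of 6 libraries, vehicle 3, vehicle 4 and glutamine 1, and the medians of 18.3 for Bad and 21.9 for Bbc3 had the opposite order. Bax with 10.7 ± 9.14, Bid with 5.10 ± 3.05, Bcl2l11 with 3.84 ± 0.553 and Bcl2 with 2.84 ± 0.406 CPM per kilobase overlapped in sequence as well. These means pool both groups, and Bid exceeded Bcl2l11 in 3 of 6 libraries, vehicle 3, vehicle 4 and glutamine 1. Hrk was lowest, at 0.160 ± 0.232 CPM per kilobase, and lay below Bcl2 in all 6 libraries. Thus the effector of higher level in these sorted tubular cells was Bak1, which exceeded Bax in every library, and the pro-survival gene of lowest level was Bcl2.

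In PMN the order was different, although the tables were made separately and no test was run between them. Mcl1 led with 433 ± 124 CPM per kilobase (SD, n = 6), above the next gene in all 6 libraries. Bax with 141 ± 73.7, Bcl2l11 with 137 ± 58.8 and Bcl2l1 with 132 ± 58.6 CPM per kilobase followed with overlapping ranges. Bax exceeded Bcl2l11 in 2 of 6 libraries, vehicle 2 and 3. In vehicle 1, as in every glutamine library, Bcl2l11 was the higher. Bad with 30.2 ± 32.3, Bid with 14.8 ± 7.71, Bbc3 with 6.99 ± 15.2 and Bak1 with 2.21 ± 2.34 CPM per kilobase came next, again with overlapping ranges. Bcl2 was listed with 4 counts in vehicle 2 and 0 in the other PMN libraries, and Hrk with at most 2 counts in any. In the PMN libraries Bax was therefore the effector of higher level and Bcl2l11 the BH3-only gene of highest mean level, whereas in TECs the effector of higher level was Bak1, and Bad and Bbc3 could not be ranked as the highest BH3-only gene. The PMN levels include transcripts of any other cells present, and in glutamine 3 the macrophage and dendritic cell markers, at 26040 CPM, nearly equalled the neutrophil markers, at 28522 CPM.

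**Figure D4:**
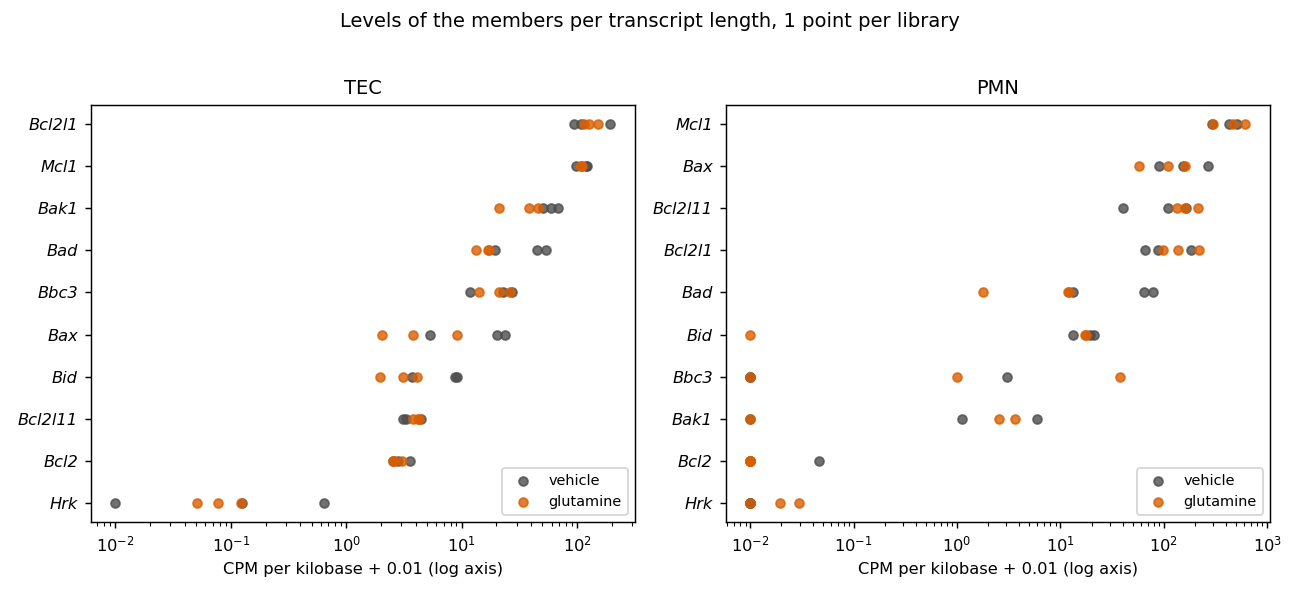
CPM per kilobase of transcript, with 0.01 added and on a log axis, for each member in 6 TEC and 6 PMN libraries, 1 point per library, genes ordered by mean. Bak1 is near the top of the TEC order and near the bottom of the PMN order, and Mcl1 is first in PMN with all points at or above 290 CPM per kilobase.

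In PMN, 0 members had an adjusted p below 0.05 in edgeR, as had 0.00% of the 10130 genes tested. Unadjusted, 0 of the 8 tested members had a p-value below 0.05, beside 1.37% of the genes in the lower and 2.04% in the higher direction. DESeq2 called 309 genes, or 2.80% of those it gave an adjusted p-value, none of them a member. Bad was again lower in all glutamine libraries, as were 4.63% of the genes tested. It reached 84.7, 14.1 and 68.9 CPM in vehicle 1, 2 and 3, and 1.90, 13.1 and 12.8 CPM in glutamine 1, 2 and 3. Vehicle 1 and 3 were high, and vehicle 2 exceeded the glutamine libraries only slightly. The log2 fold change was -2.59 (SE 1.33, 95% interval -5.75 to 0.57, edgeR adjusted p = 1), and DESeq2 gave an adjusted p = 0.233. Without the libraries with the most genes at 0, vehicle 1 and glutamine 1, a choice made after the data were seen, it was -1.74. Vehicle 1 also held 1025 CPM of Umod, the uromodulin gene of the thick ascending limb, against at most 33.4 CPM in the other PMN libraries, and vehicle 2 held endothelial markers at a sum of 1876 CPM. The part of such kidney and vessel transcripts in the PMN values was not tested. Gpr137, the antisense neighbour of Bad, had 1801, 48 and 841 counts with vehicle and 30, 405 and 663 with glutamine.

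**Figure D5:**
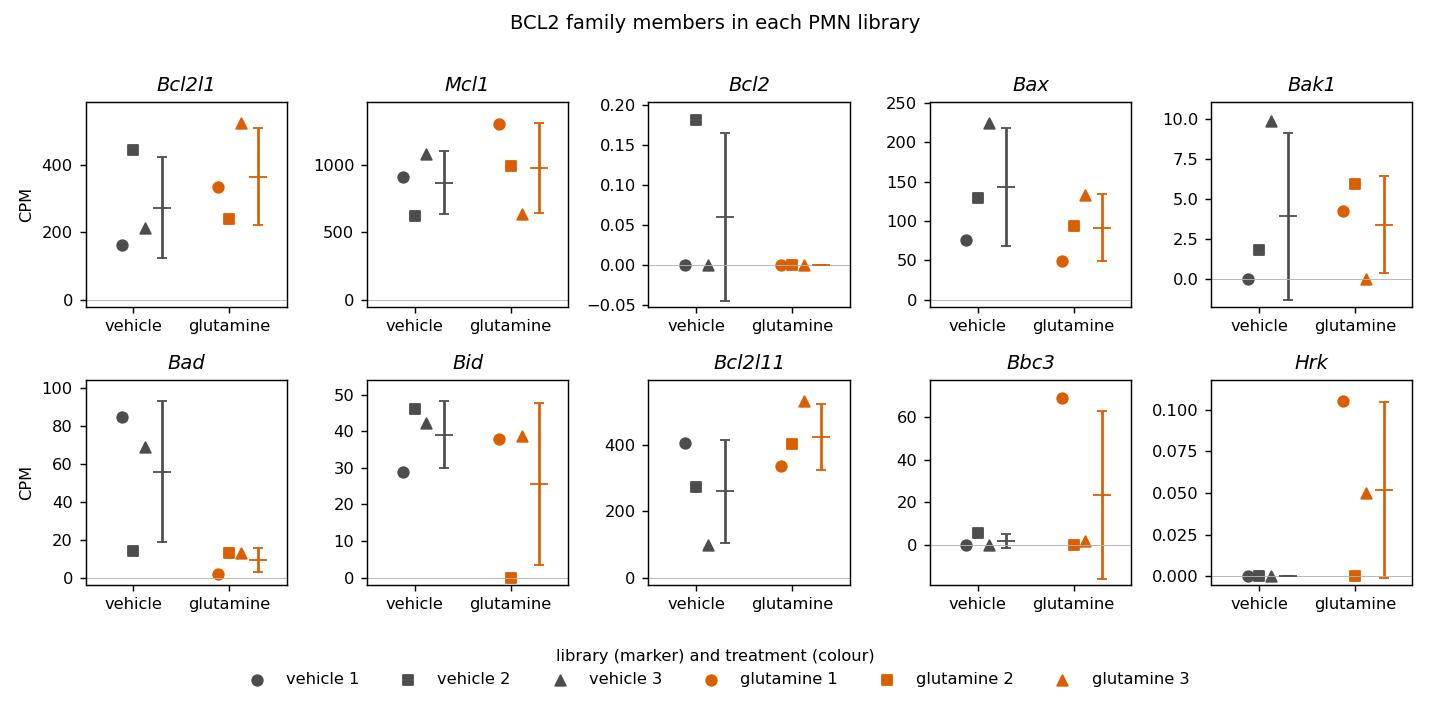
CPM of each member in the 6 PMN libraries, 1 panel per gene with its own axis; markers are libraries and bars show mean and SD of 3 libraries. Bad lies between 14.1 and 84.7 CPM with vehicle and between 1.90 and 13.1 CPM with glutamine, while Bid, Bbc3 and Bak1 are listed at 0 in single libraries.

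The abundant PMN members varied widely among libraries of the same group. Mcl1, whose short-lived protein keeps neutrophils alive, reached 910, 620 and 1082 CPM with vehicle and 1306, 994 and 637 CPM with glutamine, a log2 fold change of 0.17 with a 95% interval of -0.65 to 0.99. Bcl2l1 reached 161, 444 and 213 CPM with vehicle and 333, 239 and 523 CPM with glutamine, a log2 fold change of 0.42 with a 95% interval of -0.77 to 1.61. Neither gene separated the groups. Bcl2l11 reached 406, 272 and 99.3 CPM with vehicle and 335, 402 and 530 CPM with glutamine, a log2 fold change of 0.71 with a 95% interval of -0.54 to 1.96. Bax reached 75.6, 129 and 224 CPM with vehicle and 48.4, 93.0 and 133 CPM with glutamine, a log2 fold change of -0.64 with a 95% interval of -2.15 to 0.87. The vehicle and glutamine ranges overlapped for both genes. Single libraries weighed on these values, as the log2 fold change moved to 0.06 for Bcl2l1 without glutamine 3, to 0.31 for Bcl2l11 without vehicle 3 and to -0.17 for Bax without vehicle 3. Bid was between 28.8 and 46.2 CPM in 5 libraries and listed at 0 in glutamine 2. Bbc3 was listed at 0 in vehicle 1, vehicle 3 and glutamine 2 but reached 68.8 CPM in glutamine 1, and its log2 fold change of 3.67 had a 95% interval of -4.61 to 11.96. Without glutamine 1 it turned to -1.03. Bak1 was at most 9.85 CPM and listed at 0 in vehicle 1 and glutamine 3. The class balance in PMN was -1.97, -1.99 and -1.73 with vehicle and -2.03, -2.84 and -2.29 with glutamine, a difference of -0.49 against a pooled SD of 0.31. Without glutamine 2 the difference was -0.26. With 0.1 in place of 1 added to the CPM it was -0.32. The glutamine libraries were lower, but the pro-death share of summed CPM was 30.6% ± 5.08 with vehicle and 30.3% ± 7.51 with glutamine (SD, n = 3), since the mean log2 balance gives the weak genes as much weight as Mcl1 and Bcl2l11.

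The family list also held members outside the 10 described. Of 15 listed, 9 were tested in TECs, 7 with a log2 fold change below 0 and 2 above, compared with 49.4% of all genes below 0. Of these 9 genes, 0 had an unadjusted p-value below 0.05 in edgeR, beside 5.51% of all genes in the lower and 7.23% in the higher direction. The lowest log2 fold changes were those of Bcl2l2 and Bik. Bcl2l2, the gene of the pro-survival protein BCL-W, reached 8.48, 8.87 and 2.24 CPM with vehicle and 4.68, 1.81 and 3.18 CPM with glutamine, a log2 fold change of -1.0 (edgeR adjusted p = 0.507). Vehicle 5 fell within the glutamine range, as for Bax, and this pro-survival gene had its difference on the same side as the pro-death genes. Bik, a BH3-only gene, reached 9.67, 4.84 and 8.46 CPM with vehicle and 1.92, 4.82 and 5.15 CPM with glutamine, a log2 fold change of -0.95 (edgeR adjusted p = 0.45). The most abundant, the mitophagy receptors Bnip3l and Bnip3, had means of 82.5 ± 8.16 and 54.8 ± 4.45 CPM in vehicle libraries and of 70.0 ± 7.74 and 67.7 ± 37.1 CPM in glutamine libraries (SD, n = 3). In PMN, 10 of the 15 were tested, and the most abundant over both groups were the pro-survival A1 genes Bcl2a1b, with 322 ± 145 CPM with vehicle and 349 ± 100 CPM with glutamine, and Bcl2a1d, with 134 ± 80.7 and 170 ± 101 CPM (SD, n = 3). With vehicle alone, Bnip3l with 158 ± 78.8 and the A1 gene Bcl2a1a with 151 ± 82.9 CPM exceeded Bcl2a1d. Bcl2a1a had its difference in the other direction, with 91.2 ± 35.4 CPM with glutamine (SD, n = 3) and a log2 fold change of -0.73 (edgeR adjusted p = 1). These A1 genes are near-identical copies among which reads could be divided wrongly. In TECs Bcl2a1a and Bcl2a1b were at most 0.480 CPM in any library, and Bcl2a1d was at most 3.01 CPM, in glutamine 2. Bmf, a BH3-only gene, was listed at 0 in all PMN vehicle libraries. In glutamine 1, 2 and 3 it was at 32.0, 3.68 and 113 CPM. It was the 1 gene of the list with an unadjusted p-value below 0.05 (edgeR adjusted p = 0.738). Such p-values were found for 1.37% of all PMN genes tested in the lower and 2.04% in the higher direction. Bmf passed the expression filter only through the glutamine libraries, so no conclusion is drawn from its p-value. Groups that did not overlap in the higher direction were found for 5.87% of the genes tested in PMN.

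Regulators of BAD were examined because its activity depends on phosphorylation and on binding by 14-3-3 proteins. Of 17 such genes tested in TECs, 13 had a log2 fold change below 0, compared with 49.4% of all genes. In edgeR, 1 had an unadjusted p-value below 0.05 in the lower direction and 1 in the higher, beside 5.51% and 7.23% of all genes. Without overlap, 5 were lower and 1 higher, beside 9.81% and 9.01% of all genes tested. Akt1, a kinase that phosphorylates BAD, reached 99.2, 134 and 85.7 CPM with vehicle and 75.8, 65.7 and 67.9 CPM with glutamine, without overlap, as for 9.81% of the genes tested in the lower direction, and its log2 fold change was -0.61 (edgeR adjusted p = 0.302). Pak1, another BAD kinase, reached 17.6, 21.9 and 26.2 CPM with vehicle and 34.2, 40.6 and 30.7 CPM with glutamine, also without overlap, as for 9.01% of the genes tested in the higher direction, and its log2 fold change was 0.68 (edgeR adjusted p = 0.301). The most abundant genes of the list were Ywhaz, which encodes 14-3-3ζ, with 639 ± 32.1 and 523 ± 105 CPM, and the kinase gene Pim3, with 414 ± 164 and 380 ± 225 CPM with vehicle and glutamine (SD, n = 3). In PMN, Akt1 lay on the other side, at 11.6, 36.5 and 32.5 CPM with vehicle and 152, 57.3 and 156 CPM with glutamine (log2 fold change 2.18, edgeR adjusted p = 1). Pak1 did so as well, at 48, 105 and 107 CPM with vehicle and 22.9, 32.1 and 0 CPM with glutamine (log2 fold change -2.24, edgeR adjusted p = 1). Of the 17 genes tested in PMN, 3 were lower and 2 higher without overlap, beside 4.63% and 5.87% of all genes tested. Neither Akt1 nor Pak1 had an adjusted p below 0.05 in edgeR in either cell type. Whether their differences between glutamine and vehicle were unlike between the cell types was not tested. The other PMN genes of the list with the highest levels, Pim1 and Ywhaz, overlapped between groups.

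The steps before and after the BCL2 family were read from 3 further lists. Among transcription factors and kinases that induce BH3-only genes, 9 were tested in TECs, and 0 had an unadjusted p-value below 0.05 in edgeR, beside 5.51% of all genes in the lower and 7.23% in the higher direction. The most negative log2 fold changes were those of Trp53 and Mapk9. Trp53, the p53 gene, reached 70.8, 90.6 and 36.4 CPM with vehicle and 59.5, 28.9 and 25.8 CPM with glutamine, a log2 fold change of -0.79 (edgeR adjusted p = 0.417). Mapk9, the gene of the kinase JNK2, reached 10.4, 11.6 and 13.2 CPM with vehicle and 5.29, 8.03 and 8.88 CPM with glutamine, without overlap, as for 9.81% of the genes tested in the lower direction, and its log2 fold change was -0.67 (edgeR adjusted p = 0.443). The most abundant were Atf4, with 646 ± 310 CPM in vehicle and 847 ± 112 CPM in glutamine libraries, and Jun, with 509 ± 41.4 and 416 ± 114 CPM (SD, n = 3). Of 8 tested genes of mitochondrial release and the apoptosome, 0 had an unadjusted p-value below 0.05. Cycs, the gene of cytochrome c, had 610 ± 43.9 CPM in vehicle and 511 ± 91.3 CPM in glutamine libraries, and Vdac1, a channel of the outer membrane, had 367 ± 85.4 and 368 ± 78.3 CPM (SD, n = 3). Of 3 tested ubiquitin ligase genes that act on MCL1 or BH3-only proteins, 0 had an unadjusted p-value below 0.05, with March5 at 58.5 ± 2.70 and 48.3 ± 18.7 CPM and Fbxw7 at 25.9 ± 6.33 and 35.7 ± 8.26 CPM with vehicle and glutamine (SD, n = 3). In PMN these lists held 8, 8 and 3 tested genes, of which 0 had an unadjusted p-value below 0.05. Over all PMN genes tested the shares were 1.37% in the lower and 2.04% in the higher direction, so 0 calls say little about these lists. By the mean over both groups, their most abundant genes were Jun and Atf4, Vdac2 and Cycs, and Btrc and March5. Within single groups the order differed for the last 2 lists.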

How the data were processed

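Reads of 50 bases from poly(A)-selected RNA were made into gene counts by the authors. The submitters' processing notes name Trim Galore 0.6.4, Salmon 1.0.0, DESeq2 and mm10. Per gene symbol, the authors deposited raw estimated counts, which were rounded here. A spreadsheet program had altered the deposited PMN table: 3.20% of its cells carried extra points and 0.391% had become dates, and these were decoded back to estimated counts, with an error below 1 count for dates. Its 2 columns per library correlated at 0.99865 to 0.99888 across genes and were averaged as 1 replicate. The PMN unit had been planned as plain counts.

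Glutamine was compared with vehicle in each cell type with edgeR 4.0.16 (R 4.3.3), that is TMM scaling, the default expression filter, the quasi-likelihood test and Benjamini-Hochberg adjustment over all genes tested, at a threshold of 0.05. The standard error came from the fold change and F. DESeq2 1.42.0, limma 3.58.1, other scalings and filters, and leaving out each library were alternatives. The fits were tested on a simulated data set for each cell type, drawn with the dispersions that edgeR had estimated. There DESeq2 made a higher share of false calls than edgeR in both cell types, but it also recovered more of the changed genes. Most of its PMN calls were false, and edgeR recovered hardly any changed gene in PMN. Because the draw followed edgeR's estimates, it cannot rank the tools. Transcript lengths are medians over coding transcripts of GENCODE M21, and promoters came from RefSeq. The members and gene lists were chosen with earlier results of these data known. The named genes were all members, and from other lists those with an unadjusted p-value below 0.05 and the 2 most abundant; the overlapping neighbours of members and marker genes were added where their values bear on a result, and Havcr1, Umod, Cd74, Slc34a1, Aqp1, Slc22a6, Slc5a2, Slc12a1, Calb1, Bcl2l2, Bik, Bcl2a1a, Trp53 and Mapk9 were picked once their values were known. The paper describes mice as randomly assigned to groups and gives n = 3 for the TEC comparison. Sources do not state outright for every TEC or PMN library whether it came from a separate mouse, so p-values measure the spread between these samples.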

Additional observations from a re-analysis of the deposited data

How the results depend on the processing

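With 3 libraries a group, single members rest on few values, and 0 PMN calls at this spread say little about PMN. Hrk had 48 counts over all TEC libraries, of which vehicle 5 held 33. No paired analysis was possible because only number 3 occurs in both TEC groups and the PMN labels carry no replicate numbers. TEC members past the threshold numbered 0 in edgeR, 1 with DESeq2 (Bad, adjusted p = 0.034) and 2 without the expression filter (Bad, adjusted p = 0.00135, and Bax, 0.00911), where the calls over all genes numbered 425 against 0 with the filter and 246 with DESeq2. They numbered 0 in each fit that left out 1 library, while calls over all genes were 36 without glutamine 2 and 4 without vehicle 5. In PMN calls over all genes numbered 0, and 309 with DESeq2. The cause was not tested. Bad, Bax, Bak1 and Bid were lower with glutamine in all 16 TEC alternatives each, and Bad in all 19 PMN alternatives. The TEC log2 fold changes without 1 library ranged from -1.63 to -1.02 for Bad, -2.49 to -1.37 for Bax, -0.99 to -0.50 for Bak1 and -1.55 to -1.02 for Bid.

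Several members turned sign. In TECs, Bbc3 was at 0.02 with limma-voom and 0.03 with a normalization that omitted predicted, Rik and sensory receptor genes, and ranged from -0.30 to 0.24 without 1 library (positive at 0.19 without glutamine 1, 0.06 without vehicle 4 and 0.24 without vehicle 5). Without 1 library, Bcl2 ranged from -0.23 to 0.03 (0.03 without vehicle 3). Bcl2l1 was at 0.00 with RLE normalization and with at least 10 counts in every library, 0.06 with limma-voom, 0.04 with that reduced normalization, and ranged from -0.20 to 0.37 without 1 library (0.08, 0.01 and 0.37 without glutamine 1, glutamine 2 and vehicle 5). In PMN, Bak1 was at 0.16 with limma-voom, 0.38 without glutamine 3 and 1.87 without vehicle 3, and its lowest such value was -0.91. Bbc3 was at -1.03 without glutamine 1 and -1.61 without glutamine 1 and vehicle 1 together, and reached 11.89 without vehicle 2. Mcl1 was at -0.12 and -0.10 in the same fits and at -0.03 without vehicle 2, with 0.39 as its highest value without 1 library. The class balance in TECs stayed between -0.80 and -0.54 in all alternatives, and in PMN it was -0.04 as a ratio of summed CPM and ranged from -0.67 to -0.26 without 1 library. Without 1 library the PMN log2 fold changes ranged from -1.01 to -0.17 for Bax, 0.06 to 0.96 for Bcl2l1, 0.31 to 1.16 for Bcl2l11, -1.07 to -0.07 for Bid and -3.06 to -2.13 for Bad. PMN Bid, at -0.61 in the main fit, was at -3.59 with limma-voom.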

Other observations

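The TEC glutamine libraries also lay apart from the vehicle libraries for several partners of BAD that the report does not name. Ywhab, Ywhag and Ywhah, which encode 14-3-3 proteins, and Prkaca, a catalytic subunit of protein kinase A, were lower in every glutamine library than in every vehicle library, a pattern shared by 9.81% of the genes tested. For Ywhag the groups all but touched, at 193, 243 and 200 CPM with vehicle and 193, 117 and 156 CPM with glutamine. Ywhab went from 314 ± 28.3 to 245 ± 17.9 CPM and Ywhah from 199 ± 20.0 to 150 ± 14.6 CPM (SD, n = 3), with log2 fold changes of -0.36 and -0.41 and adjusted p-values of 0.441 and 0.4 in edgeR. The 14-3-3 genes Ywhae and Ywhaq overlapped between the groups, and Sfn, which also encodes a 14-3-3 protein, had its difference in the other direction, with 107, 87.3 and 76.5 CPM with vehicle and 193, 162 and 73.6 CPM with glutamine and a log2 fold change of 0.66 (edgeR adjusted p of 0.414). Prkaca went from 31.9 ± 5.10 to 23.3 ± 2.98 CPM. In PMN, Pmaip1, the gene of the BH3-only protein NOXA, had 81.6, 40.2 and 91.4 CPM with vehicle and 252, 93.5 and 124 CPM with glutamine, without overlap, as for 5.87% of the genes tested in the higher direction, and a log2 fold change of 1.14 (edgeR adjusted p of 1). The genes of this paragraph were picked once their values were known.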
